A study of Mus musculus with 24 samples.

Results

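Fat of the mammary gland opposite a breast tumor was compared with the same fat of mice labelled as having no tumor, in animals fed Chow. The members were the 4 libraries labelled Chow and contralateral and the 4 labelled Chow and no tumor, 8 of the 24 libraries in the series, and all genes were examined. All mice were C57BL/6, and every library came from total RNA of flash frozen subcutaneous fat of the 4th mammary gland, treated with DNase and depleted of ribosomal RNA. The contralateral and no-tumor groups of the other diet, labelled HFD (8 further libraries), were used for comparison. Lean and obese are the series' own words for its mice. The labels used here give no age, tumor line, tumor size or collection time, and they do not say that the replicates are separate animals. The p-values therefore rest on how far libraries of a group lie apart, which may be technical spread alone.

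The mammary fat pad is white adipose tissue in which the ducts of the gland are embedded. Besides adipocytes it holds blood and lymph vessels, nerves wrapped by Schwann cells, fibroblasts, immune cells and, close by, a lymph node and the muscle of the body wall. Fat far from a tumor can differ from fat of a tumor-free animal through circulating hormones, cytokines and nutrients, and the contralateral depot is often taken as the internal control in such studies. In bulk tissue, more RNA of a gene per cell and more cells of the type that expresses it cannot be told apart.

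Total counts were 11.69 to 13.85 M in the contralateral libraries and 16.12 to 16.64 M in the no-tumor libraries, so the groups did not overlap in depth. They did not overlap either in the share of counts on mitochondrial ribosomal RNA (23.08 to 26.38% against 29.65 to 34.77%) or on small noncoding RNA (0.27 to 0.35% against 0.38 to 0.5%). The small noncoding share includes Rpph1 and Rmrp, which are described below. The defining adipocyte markers were high in all 8 libraries, with Adipoq at 1200 to 1500 CPM (counts per M counts, scaled by TMM) in contralateral and 1400 to 1650 CPM in no-tumor fat, while the brown fat marker Ucp1 did not exceed 1.66 CPM. Some libraries stood apart. Contralateral replicate 2 had 11.367% of its counts on Gm42418, a gene model that overlaps ribosomal RNA sequence, against at most 0.9% in the other 7. Contralateral replicate 4 was high in lymph node genes, with Glycam1, a product of high endothelial venules, at 73 CPM against at most 0.343 CPM elsewhere. Skeletal muscle RNA was uneven, as described below, and no-tumor replicate 2 differed from the other 3 no-tumor libraries in interferon and lipogenic genes.

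**Figure D1:**
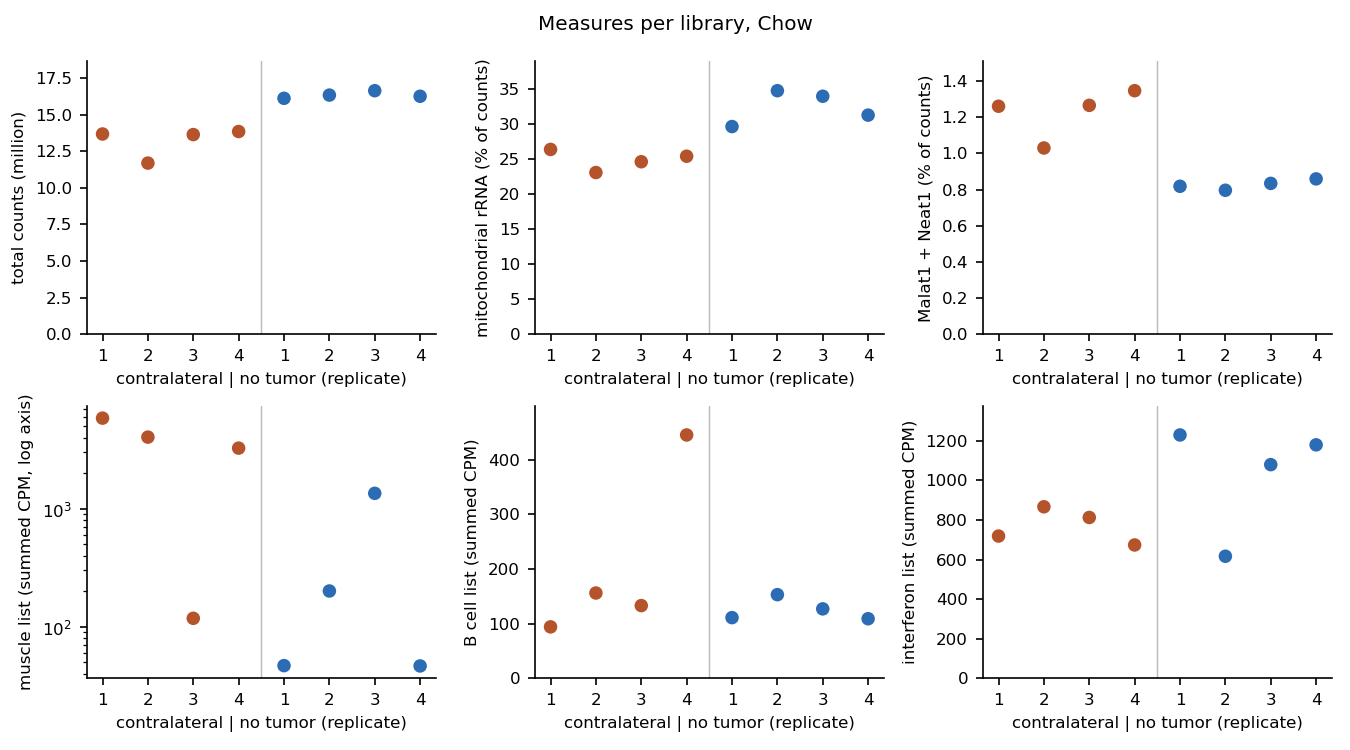
Measures of the 8 Chow libraries: total counts in M, mitochondrial ribosomal RNA and Malat1 plus Neat1 as percent of counts, and the summed CPM of the skeletal muscle (log axis), B cell and interferon lists, each point being 1 library. Total counts are 11.69 to 13.85 M in contralateral and 16.12 to 16.64 M in no-tumor libraries, the B cell sum stands out in contralateral replicate 4 (445 CPM), and the interferon sum is lowest in no-tumor replicate 2 (617 CPM).

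In contralateral fat, members of the Schwann cell, endothelial and nuclear noncoding lists were called higher than in no-tumor fat, and members of the oxidative phosphorylation, ribosomal protein and cholesterol lists were called lower. Of 15946 genes tested, 1268 were called at an adjusted p under 0.05 (edgeR quasi-likelihood test, Benjamini-Hochberg adjustment), which is 7.95% of the genes. Higher calls numbered 786 (4.93%) and lower calls 482 (3.02%). Called or not, 7837 genes had values above 0 and 8109 below 0. The differences were mostly small: the median log2 fold change was 0.52 among the higher and -0.33 among the lower calls, and 116 higher against 4 lower genes changed by more than 2-fold. The count leaned on single libraries, falling to 375 without no-tumor replicate 3 and to 383 without contralateral replicate 1, and rising to 1986 without no-tumor replicate 2. All of the 1268 called genes kept their direction when contralateral replicate 1 was left out, as did all 1267 of them that were still tested without no-tumor replicate 2 or 3. These fits reuse the other libraries, so a kept direction is no independent support.

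Genes of peripheral nerve are described first. Prx (ENSMUSG00000053198, chr7:27499324-27520214 on mm10, plus strand), which encodes periaxin of the myelin sheath, stood at 10.5, 13.3, 10.4 and 11.6 CPM in contralateral and 6.62, 3.72, 4.18 and 5.62 CPM in no-tumor fat. Every contralateral library lay above every no-tumor library, which the naming rule for large changes itself asks for. The log2 fold change was 1.21 (SE 0.17, adjusted p = 0.00524). Its exons overlap those of Gm15541 on the opposite strand, and no source used here says how strand was handled in counting, so the reads of the pair cannot be told apart. The same holds for the other genes named here whose exons overlap a gene on the opposite strand, among them Foxo1, Meg3, Reln, Son, Usp2, Slc25a37, Ckm, Ckmt1 and Ckmt2.

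Of the 12 tested genes on the Schwann cell and myelin list, 5 rose and 0 fell. Besides Prx they include Sox10 (the transcription factor of Schwann cell identity, 0.68, SE 0.10, adjusted p = 0.00684) and Mbp (myelin basic protein, 0.46, SE 0.06, adjusted p = 0.00434). Mal and Ncmap, other myelin membrane genes, had values of 0.90 and 1.07 that did not pass (adjusted p = 0.0562 and 0.0502). Pmp22, at 120 CPM in both groups, had 0.04, and Egr2, the inducer of the myelin program, had -0.72 (SE 0.57, adjusted p = 0.449). The median over the list was 0.59, against -0.01 over all genes. Leaving out any 1 library gave 5 to 7 higher members, and the summed level of the list was 291 to 314 CPM in contralateral against 224 to 263 CPM in no-tumor libraries.

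The genes below were named by the rule for large higher changes, which also asked for groups that do not overlap. They are on no list used here, and what they share was not tested. Kcna1, a voltage-gated potassium channel of myelinated axons, stood at 28, 28.3, 25 and 23.3 CPM against 9.36, 9.27, 9.56 and 13.1 CPM (1.37, SE 0.12, adjusted p = 0.000745). Kif1a, a kinesin that carries synaptic vesicle precursors along axons, rose by 1.29 (SE 0.21, adjusted p = 0.00896), from 3.22 ± 0.638 to 7.7 ± 1.88 CPM (SD, n = 4). For Gpr17, a receptor of the oligodendrocyte lineage, the levels were 29.9, 25.5, 26.7 and 23.2 against 13.7, 12.5, 12.2 and 15.4 CPM (1.01, SE 0.10, adjusted p = 0.00153), but its exons overlap Lims2 on the opposite strand. Tenm2, a teneurin adhesion protein of synapses, and Syn3, a synapsin whose exons overlap Timp3, each had a log2 fold change of 1 (SE 0.13 and 0.14, adjusted p = 0.00482 and 0.00524). All 5 kept their call without any 1 library.

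The other genes that met the naming rule belonged to no single group. Slc28a3, a concentrative nucleoside transporter, rose by 1.68 (SE 0.27, adjusted p = 0.00969), and its contralateral values were 12.7, 5.53, 6.58 and 6.78 CPM against 2.16 to 3.32 CPM. Slc4a8, a sodium-driven bicarbonate exchanger, rose by 1.67 (SE 0.22, adjusted p = 0.00485), with 11.3 CPM in contralateral replicate 4 and 5.25 to 7.41 CPM in the other 3. Vwa3a and Phxr4 rose by 1.02 and 1.34 (adjusted p = 0.00424 and 0.00738). Shank3, a scaffold protein of synapses that is also expressed outside the nervous system, stood at 72.3, 72.7, 78.2 and 67.4 CPM against 41.1, 42.8, 43.5 and 40.4 CPM (0.83, SE 0.06, adjusted p = 0.000187). It was added after its values were seen, and it overlaps Gm15609 on the opposite strand.

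**Figure D2:**
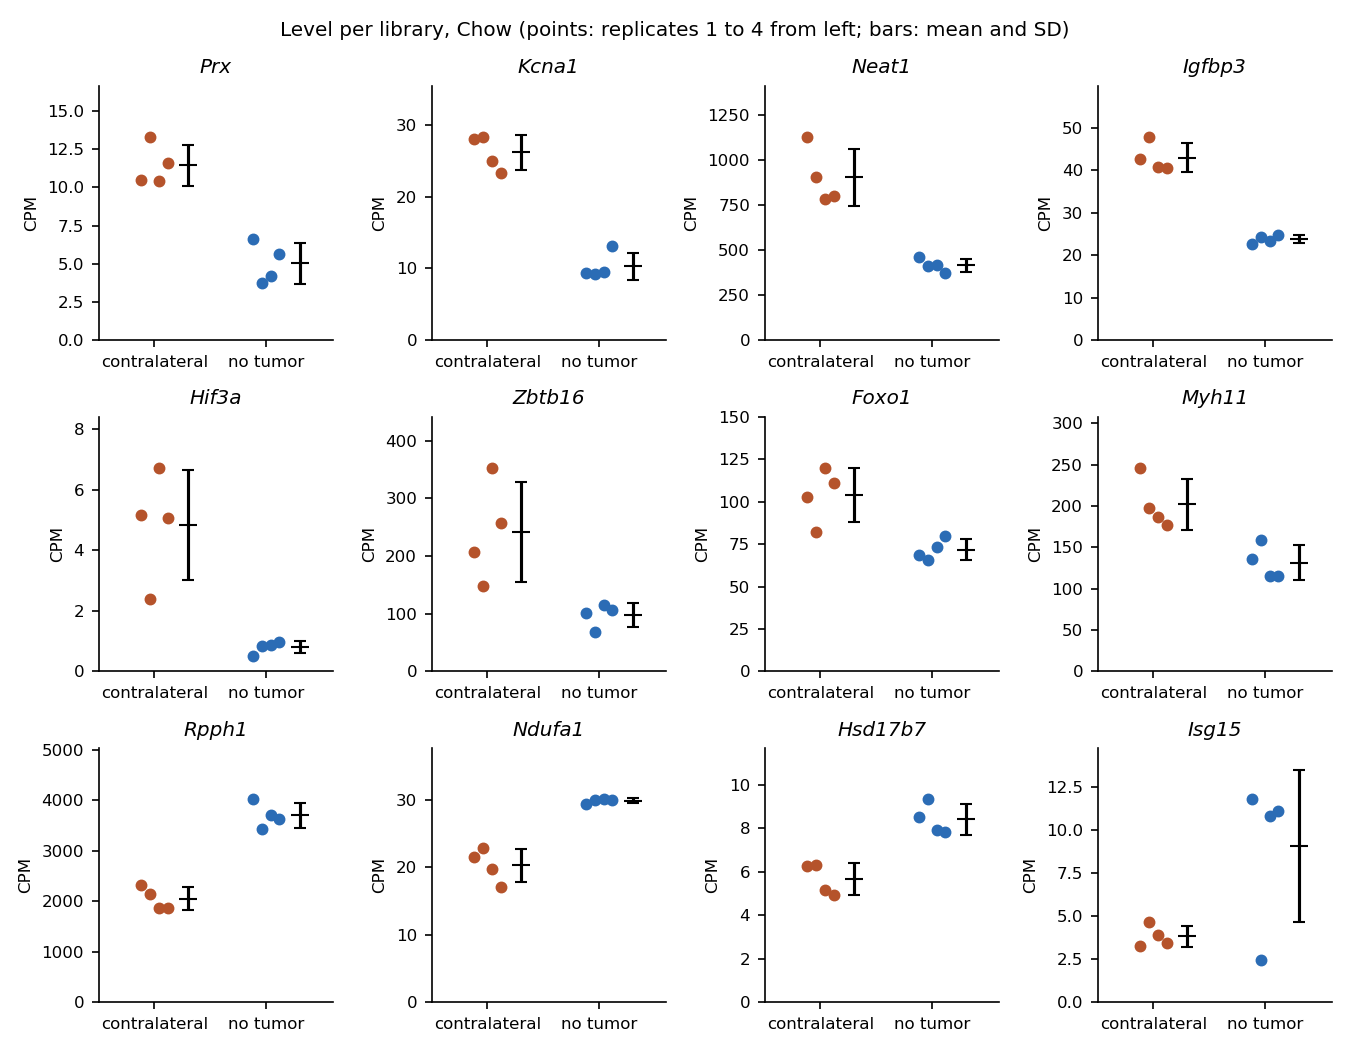
CPM of 12 genes in each of the 4 contralateral and 4 no-tumor libraries on Chow (points are replicates 1 to 4 from left, bars are mean and SD, axes start at 0). For Kcna1 the contralateral libraries sit at 23.3 to 28.3 CPM and the no-tumor libraries at 9.27 to 13.1 CPM. Its naming rule required groups without overlap. For Isg15 no-tumor replicate 2 sits at 2.46 CPM, near the contralateral libraries.

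Of 7 nuclear noncoding RNAs, 3 rose and all 7 had values above 0 (median 0.45). The list includes Gm42418, the gene model overlapping ribosomal RNA sequence that was high in contralateral replicate 2. Its value of 6.01 did not pass (adjusted p = 0.122). Neat1 (chr19:5824708-5845478), the noncoding RNA on which paraspeckles assemble, stood at 1130, 905, 787 and 800 CPM in contralateral and 463, 412, 420 and 375 CPM in no-tumor fat, a log2 fold change of 1.15 (SE 0.12, adjusted p = 0.00166). Its neighbour Malat1, an RNA of nuclear speckles, stood at 10600, 10600, 11100 and 11100 against 7930, 8720, 8790 and 8750 CPM (0.38, SE 0.09, adjusted p = 0.027), a call that held in 2 of the 8 omissions of a library (highest adjusted p = 0.0742). Meg3, an imprinted noncoding RNA, rose by 0.45 (SE 0.07, adjusted p = 0.00883).

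Of 20 genes for splicing and RNA binding, 5 rose, 0 fell and 19 had values above 0 (median 0.15). They include Srsf5, a serine and arginine rich splicing factor (140 ± 2.46 against 116 ± 3.15 CPM, 0.31, adjusted p = 0.00934), Clk4, a kinase of such factors (0.32, adjusted p = 0.0261), and Son, a core protein of nuclear speckles (0.27, adjusted p = 0.0288). Leaving out single libraries gave 1 to 6 higher members, with 1 left without contralateral replicate 1 or 4 and 6 without no-tumor replicate 2. Rbm4 and Rbm4b, neighbouring near-identical RNA-binding genes whose reads may have been split between them, rose by 0.66 and 0.60 (adjusted p = 0.00424 and 0.00361).

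Many blood vessel genes rose. On the endothelial list 8 of 14 genes rose and 0 fell, with a median of 0.33. Flt1, a receptor for vascular endothelial growth factor, stood at 116, 105, 109 and 92.2 CPM against 73.3, 75.9, 75.7 and 83.8 CPM (0.48, SE 0.07, adjusted p = 0.00738). Tie1, an orphan receptor of the angiopoietin system, and Esam, an adhesion molecule of endothelial junctions, rose by 0.47 and 0.51 (adjusted p = 0.00747 and 0.0119). The defining markers Pecam1 and Cdh5 rose by 0.35 and 0.31 (adjusted p = 0.0267 and 0.0302), and Cldn5, a tight junction protein, had -0.04. Single omissions gave 3 to 10 higher members, with 3 left without contralateral replicate 1 or no-tumor replicate 3 and 4 without contralateral replicate 3 or no-tumor replicate 4. The summed level was 874 to 1050 CPM in contralateral against 767 to 817 CPM in no-tumor libraries. Adgrf5, an adhesion receptor abundant in endothelium that is not on the list, stood at 289 ± 42.3 against 193 ± 6.64 CPM (SD, n = 4; 0.62, adjusted p = 0.00672).

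On the list of mural and smooth muscle genes, 4 of 10 rose and 0 fell (median 0.39). Myh11, smooth muscle myosin, stood at 246, 198, 187 and 177 CPM against 136, 159, 115 and 115 CPM (0.66, SE 0.13, adjusted p = 0.0237), without overlap between the groups. Acta2, smooth muscle actin, rose by 0.48 with the same adjusted p. Both calls held in 5 of 8 omissions (highest adjusted p = 0.0603 and 0.0638), being lost without no-tumor replicate 1, 3 or 4. Without no-tumor replicate 3 or 4 no member of the list was called, and without no-tumor replicate 2, 7 were. In the latter fit 996 of all 16108 genes tested were called higher, against 786 of 15946 with all libraries. Carmn, a noncoding RNA of smooth muscle added after its values were seen, rose by 0.86 (SE 0.11, adjusted p = 0.00524) and kept its call in every omission. Reln, the called gene of 6 lymphatic endothelial genes, stood at 19.2, 13.2, 13.8 and 15.4 against 6.62, 9.2, 8.1 and 4.83 CPM (1.14, adjusted p = 0.0124). Of the 6 genes, 4 had values above 0 and 2 below (median 0.50). The summed level of that list was 136, 131, 138 and 124 CPM in contralateral and 206, 82.2, 178 and 171 CPM in no-tumor libraries. Without no-tumor replicate 2, 2 members were called higher and 1 lower.

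Of 19 luminal genes of the mammary epithelium 1 rose and 1 fell (median -0.10), near the 4.93% and 3.02% over all genes. Elf5, the transcription factor of alveolar luminal progenitors, rose from 12.7, 13.5, 15.9 and 15.4 to 32.9, 19.6, 24.3 and 21.7 CPM (0.82, SE 0.15, adjusted p = 0.0153). Pgr, the progesterone receptor of hormone-sensing luminal cells, fell, at 69.4, 63.5, 57 and 57.3 against 133, 86, 85.6 and 92.4 CPM (-0.64, SE 0.14, adjusted p = 0.0287), and the call held in 3 of 8 omissions (highest adjusted p = 0.0796). Of 10 basal genes 3 rose and 0 fell (median 0.38), of which Myh11 and Acta2 are shared with smooth muscle. The third, Krt5, a basal keratin, stood at 22 ± 1.1 against 16.9 ± 1.05 CPM (0.42, adjusted p = 0.0141).

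Of 18 glucocorticoid-responsive genes 1 rose, near the 4.93% called higher over all genes. Values above 0 were found in 16 (median 0.29), against 7837 of all 15946 genes. The called gene, Zbtb16, a zinc finger gene induced by glucocorticoids, stood at 207, 149, 353 and 258 against 101, 67.9, 115 and 107 CPM (1.34, SE 0.28, adjusted p = 0.0356). Its call was kept in 1 of 8 omissions, that of contralateral replicate 2 (highest adjusted p = 0.0947). Fkbp5, a cochaperone of the glucocorticoid receptor, had a value of 1.35 that did not pass (adjusted p = 0.0826), with 39.9 CPM in contralateral replicate 2 and 44 CPM in no-tumor replicate 4. On HFD the median of this list was 0.32, with 1 gene called higher. Hif3a, a hypoxia-inducible factor subunit that is on no list used here and was added after its values were seen, had the largest fold change among the called genes named here: 5.18, 2.38, 6.72 and 5.05 CPM against 0.509, 0.843, 0.863 and 0.98 CPM (2.64, SE 0.32, adjusted p = 0.00388).

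Foxo1, a transcription factor held out of the nucleus by insulin signalling, stood at 103, 82.4, 120 and 111 against 68.4, 65.5, 73.1 and 79.7 CPM (0.58, SE 0.10, adjusted p = 0.0141). All contralateral libraries lay above all no-tumor libraries, and the call was kept in every omission. Per2, a repressor of the circadian clock, rose by 0.69 (SE 0.15, adjusted p = 0.0287), from 47.4 ± 8.18 to 74.6 ± 14 CPM, a call held in 4 of 8 omissions (highest adjusted p = 0.0756). Together with Usp2 it made up the 2 higher calls among 15 output and repressor genes of the clock, and 0 of 6 activator genes were called. Over all genes 4.93% were called higher, and no contrast between these lists is read from the counts. Single omissions gave 0 to 4 higher output and repressor genes, with 0 left without contralateral replicate 4. The time of day of collection is not given in the labels, so its part was not tested. Igfbp3, a circulating binding protein of insulin-like growth factors, rose from 22.7, 24.3, 23.4 and 24.8 to 42.8, 47.9, 40.9 and 40.5 CPM (0.89, SE 0.07, adjusted p = 0.000466). It was the called gene among 15 genes of growth factor signalling, beside 4.93% called higher over all genes, so nothing is read from that count.

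Lower changes were mostly small. The 4 lower genes past 2-fold lay under the 5 CPM that the naming rule asks for, so 12 lower genes without the 2-fold minimum were added after the values were seen. The largest drop among these 12 genes was in Rpph1 (chr14:50807449-50807767), the RNA subunit of ribonuclease P, at 2330, 2150, 1870 and 1870 CPM in contralateral against 4030, 3430, 3720 and 3630 CPM in no-tumor fat (-0.81, SE 0.10, adjusted p = 0.00388). Rmrp, the related RNA of ribonuclease MRP, stood at 221, 225, 229 and 206 against 367, 288, 359 and 380 CPM (-0.62, SE 0.08, adjusted p = 0.00482), and its locus overlaps Ccdc107 on the opposite strand. Both are short RNAs. The share of small noncoding RNA given above, which differed without overlap between the groups, includes both, so it is no separate measure of them. Its part in these values was not tested. Among protein-coding genes, Dusp4, a phosphatase of MAP kinases, fell by 0.67 on the log2 scale (SE 0.09), Hoxc8, a positional homeobox gene, by 0.53 (SE 0.08) and Cstb, an inhibitor of cathepsins, by 0.50 (SE 0.07). Their adjusted p-values were 0.00524, 0.00619 and 0.00524, and each call was kept in every omission.

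Of 28 nuclear genes of oxidative phosphorylation 7 fell, and all 28 had values below 0 (median -0.29). Ndufa1, a small subunit of complex I, stood at 21.5, 22.8, 19.8 and 17.1 against 29.3, 29.9, 30.1 and 30 CPM (-0.52, SE 0.09, adjusted p = 0.00998) and kept its call in every omission. Cox6a1 and Cox4i1, subunits of cytochrome c oxidase, fell by 0.38 and 0.36 on the log2 scale (adjusted p = 0.0252 and 0.0374). Leaving out single libraries gave 1 to 9 lower members, with 1 left without contralateral replicate 3 or 4 or no-tumor replicate 3. Of 7 messages of the mitochondrial genome 2 fell: mt-Nd2, at 1010, 1110, 1090 and 1080 against 1400, 1500, 1450 and 1460 CPM (-0.40, adjusted p = 0.0136), and mt-Nd5 (-0.38, adjusted p = 0.0474, overlapping mt-Nd6 on the opposite strand). The large mitochondrial ribosomal RNA mt-Rnr2 fell by 0.54 (SE 0.12, adjusted p = 0.0257). Of 17 genes of fatty acid oxidation 3 fell, Acadm, Acads and Etfb, by 0.29, 0.28 and 0.32 on the log2 scale, and without contralateral replicate 2, 3 or 4 or no-tumor replicate 3 none was called.

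Ribosomal protein genes had a median of -0.19, with 4 of 29 called lower. Rplp1, a protein of the ribosomal stalk, stood at 229, 205, 199 and 200 against 299, 234, 279 and 277 CPM (-0.35, SE 0.08, adjusted p = 0.0258). The count rose to 15 without no-tumor replicate 2 and fell to 0 without contralateral replicate 3 or 4 or no-tumor replicate 3 or 4. The count of 15 is only a description, and 6.15% of all genes were called lower in that fit, against 3.02% with all libraries. Peroxiredoxin Prdx1, an antioxidant enzyme, fell by 0.35 (SE 0.06, adjusted p = 0.0118) and was 1 of 3 lower genes among 15 targets of NRF2. Gclc, which makes the glutathione precursor, rose by 0.24 (SE 0.06, adjusted p = 0.027) on the same list.

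Most cholesterol genes had values slightly below 0. Of 22 genes of sterol synthesis and uptake, 21 had values below 0 (median -0.37) and 3 fell. Hsd17b7, which reduces a sterol intermediate, stood at 6.27, 6.3, 5.14 and 4.92 against 8.53, 9.34, 7.9 and 7.84 CPM (-0.54, SE 0.13, adjusted p = 0.0296). Msmo1, a sterol methyl oxidase, fell by 0.36 (adjusted p = 0.0483). Hmgcs1, which makes the precursor of mevalonate, had -0.63 (SE 0.20, adjusted p = 0.0913). Single omissions gave 0 to 3 lower members, with 0 left without contralateral replicate 1 or 4 or no-tumor replicate 1 or 3, and on HFD the median was -0.04 with 0 genes called in either direction.

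Promoters of these genes are shown because many genes of sterol synthesis are controlled by SREBP factors, which bind the sterol regulatory element and E-boxes. Of the 22 genes, 15 matched the RefSeq promoter table (GRCm38.p6, 250 bases before to 50 after the start), and both strands were searched for CACGTG (E-box) and TCACNCCAC (sterol regulatory element), a choice made after the values were seen. The E-box letters were in 4 of the 15 and in 7.15% of all 32851 promoters. The sterol element letters were in 1 of the 15 and in 1.24% of all. Capitals mark the match, an E-box at -143 relative to the start in Hsd17b7 and a sterol element at -137 in Hmgcs1. Msmo1 held neither, and Hmgcs1 was not among the called genes, so neither called gene shown had the sterol element letters. A match is only a description. The sequences run 5′ to 3′ on the gene's strand, chr1:169969156-169969455 (minus), chr8:64733529-64733828 (minus) and chr13:119690101-119690400 (plus).
Hsd17b7: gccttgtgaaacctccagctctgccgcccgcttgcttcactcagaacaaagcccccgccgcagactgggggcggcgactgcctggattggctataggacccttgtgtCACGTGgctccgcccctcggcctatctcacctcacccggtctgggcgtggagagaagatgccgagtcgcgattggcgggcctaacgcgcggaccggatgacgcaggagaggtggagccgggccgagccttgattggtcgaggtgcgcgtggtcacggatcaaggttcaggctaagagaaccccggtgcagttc
Msmo1: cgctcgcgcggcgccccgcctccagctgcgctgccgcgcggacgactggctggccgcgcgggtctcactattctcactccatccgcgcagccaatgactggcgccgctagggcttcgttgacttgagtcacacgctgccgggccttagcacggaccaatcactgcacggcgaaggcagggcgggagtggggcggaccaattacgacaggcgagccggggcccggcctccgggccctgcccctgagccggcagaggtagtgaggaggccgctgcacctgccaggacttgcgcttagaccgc
Hmgcs1: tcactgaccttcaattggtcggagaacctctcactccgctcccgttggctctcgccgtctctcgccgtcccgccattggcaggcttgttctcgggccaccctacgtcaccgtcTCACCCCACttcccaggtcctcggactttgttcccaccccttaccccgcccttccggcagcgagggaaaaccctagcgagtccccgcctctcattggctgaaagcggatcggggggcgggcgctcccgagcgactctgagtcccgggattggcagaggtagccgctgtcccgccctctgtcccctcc

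Genes of collagen and matrix had a median of -0.24, and 2 of 27 were called lower: Lum, lumican, at 154 ± 17.2 against 201 ± 9.96 CPM (-0.35, adjusted p = 0.0287), and Col5a2, a fibrillar collagen chain (-0.29, adjusted p = 0.0487). Without no-tumor replicate 2 the count rose to 12, and without contralateral replicate 1, 3 or 4 or no-tumor replicate 3 or 4 it was 0. Without no-tumor replicate 2, lower calls over all genes also rose, from 3.02% to 6.15%. That library was set apart by its own values, so the count of 12 is a description and not a test. Serpinh1, the collagen chaperone of the endoplasmic reticulum, which was added after its values were seen, stood at 344, 326, 324 and 279 against 456, 462, 428 and 452 CPM (-0.46, SE 0.07, adjusted p = 0.00904) and kept its call in every omission.

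Interferon-stimulated genes depended on 1 library. All 24 genes of the type I interferon list had values below 0 (median -0.45), yet 0 were called by edgeR with all 8 libraries, while 4443 of all genes tested had an unadjusted p under 0.05. Isg15, a ubiquitin-like protein induced by interferon, stood at 3.27, 4.67, 3.91 and 3.45 CPM in contralateral and 11.8, 2.46, 10.8 and 11.1 CPM in no-tumor fat (-1.21, SE 0.43, adjusted p = 0.12). No-tumor replicate 2 lay with the contralateral libraries, and the summed level of the list was 617 CPM in it against 1080 to 1230 CPM in the other 3 no-tumor libraries and 674 to 867 CPM in contralateral fat. Without it 19 of the 24 were called lower (background 6.15%), with a median of -0.68, and Isg15 had -1.52 (SE 0.14, adjusted p = 0.000292). Zbp1, a sensor of nucleic acids, and Oas3, an antiviral synthetase, then had -0.95 and -1.20 (adjusted p = 0.00139 and 0.00426). Because these same genes set no-tumor replicate 2 apart, the calls without it are a description and not a test. Iigp1, a GTPase induced by interferon gamma that is on another list, fell with all libraries, at 99.5, 109, 100 and 110 against 152, 143, 148 and 172 CPM (-0.52, SE 0.07, adjusted p = 0.00524). It was the only called gene of 14 on that list, of which 9 had values below 0 and 5 above (median -0.26). Over all genes 3.02% were called lower.

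Macrophage genes had a median of -0.31, with 14 of 16 below 0. The single called gene rose: Mertk, a receptor for engulfing dead cells, at 52, 48.9, 68.1 and 65.2 against 37, 34.4, 40.4 and 40.4 CPM (0.66, SE 0.11, adjusted p = 0.00955). Without no-tumor replicate 2, 11 macrophage genes were called lower. That is also only a description, as the summed level in that library was 1040 CPM against 1760 to 1950 CPM in the other 3 no-tumor libraries. The mast cell proteases Cma1 and Tpsb2 fell by 0.41 and 0.32 on the log2 scale (adjusted p = 0.0381 and 0.0259), calls held in 3 of 8 omissions each. They were the 2 called of 9 mast cell genes, of which 7 had values below 0 and 2 above (median -0.17). Over all genes 3.02% were called lower, and without contralateral replicate 4 the list had 0 called members.

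RNA of neighbouring tissue differed widely between libraries of the same group. All 17 tested skeletal muscle genes had values above 0 (median 2.51), but 0 were called. Their summed level was 5850, 4040, 118 and 3260 CPM in contralateral and 46.9, 201, 1350 and 46.6 CPM in no-tumor fat, so contralateral replicate 3 and no-tumor replicate 3 crossed between the groups. With the muscle mean as a covariate, 122 genes were called, 112 higher and 10 lower. In that fit the myelin list had 3 higher members, the endothelial list 2 and the nuclear noncoding list 1. The mural, splicing, basal and lymphatic lists and the lists of oxidative phosphorylation, ribosomal protein, cholesterol, fatty acid oxidation, matrix and mast cell genes had 0 called members in it. All 14 B cell genes had values above 0 (median 2.23), with 0 called, and the median was 0.26 without contralateral replicate 4. That library had 445 CPM of B cell genes against 94.1 to 156 CPM in the other 7, and 155 CPM of T and NK cell genes against 20.7 to 27.4 CPM.

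Of 20 mature adipocyte genes 0 were called and 17 had values below 0 (median -0.15). Cebpa and Pparg, transcription factors of adipocyte identity, had -0.31 and -0.32 (adjusted p = 0.0517 and 0.075), and passed in 4 and 1 of 20 alternative settings, DESeq2 among them for both. Adipoq, adiponectin, had -0.21 (adjusted p = 0.184), and Lep, leptin, had -0.09 (SE 0.25). Acly, a lipogenic enzyme, stood at 557, 542, 506 and 574 CPM in contralateral and at 371, 2670, 497 and 227 CPM in no-tumor fat, a spread among the no-tumor libraries wider than the difference of the means.

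The study's title concerns creatine, and the 8 creatine genes were examined in full. None was called, and 6 of 8 had values above 0. Gatm, which makes the creatine precursor guanidinoacetate, stood at 11.7, 12.3, 9.12 and 8.57 against 9.49, 6.25, 9.37 and 7.71 CPM (0.38, SE 0.16, adjusted p = 0.149). Gamt, which methylates it to creatine, had -0.47 (SE 0.23, adjusted p = 0.216), and the transporter Slc6a8 had 0.17 (SE 0.09, adjusted p = 0.234). Of the creatine kinases, the brain form Ckb had -0.17 (adjusted p = 0.381) and the mitochondrial form Ckmt1 had 0.74 (SE 0.22, adjusted p = 0.0596), at 2.71 ± 0.586 against 1.67 ± 0.323 CPM. The muscle forms Ckm and Ckmt2 had 2.86 and 1.6 with standard errors of 1.74 and 0.81, and their levels in contralateral replicate 3 were 0.754 and 0.0686 CPM, the same library that was low in the muscle list. Alpl, a phosphatase linked to creatine cycling in thermogenic fat, had 0.29 (adjusted p = 0.131).

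**Figure D3:**
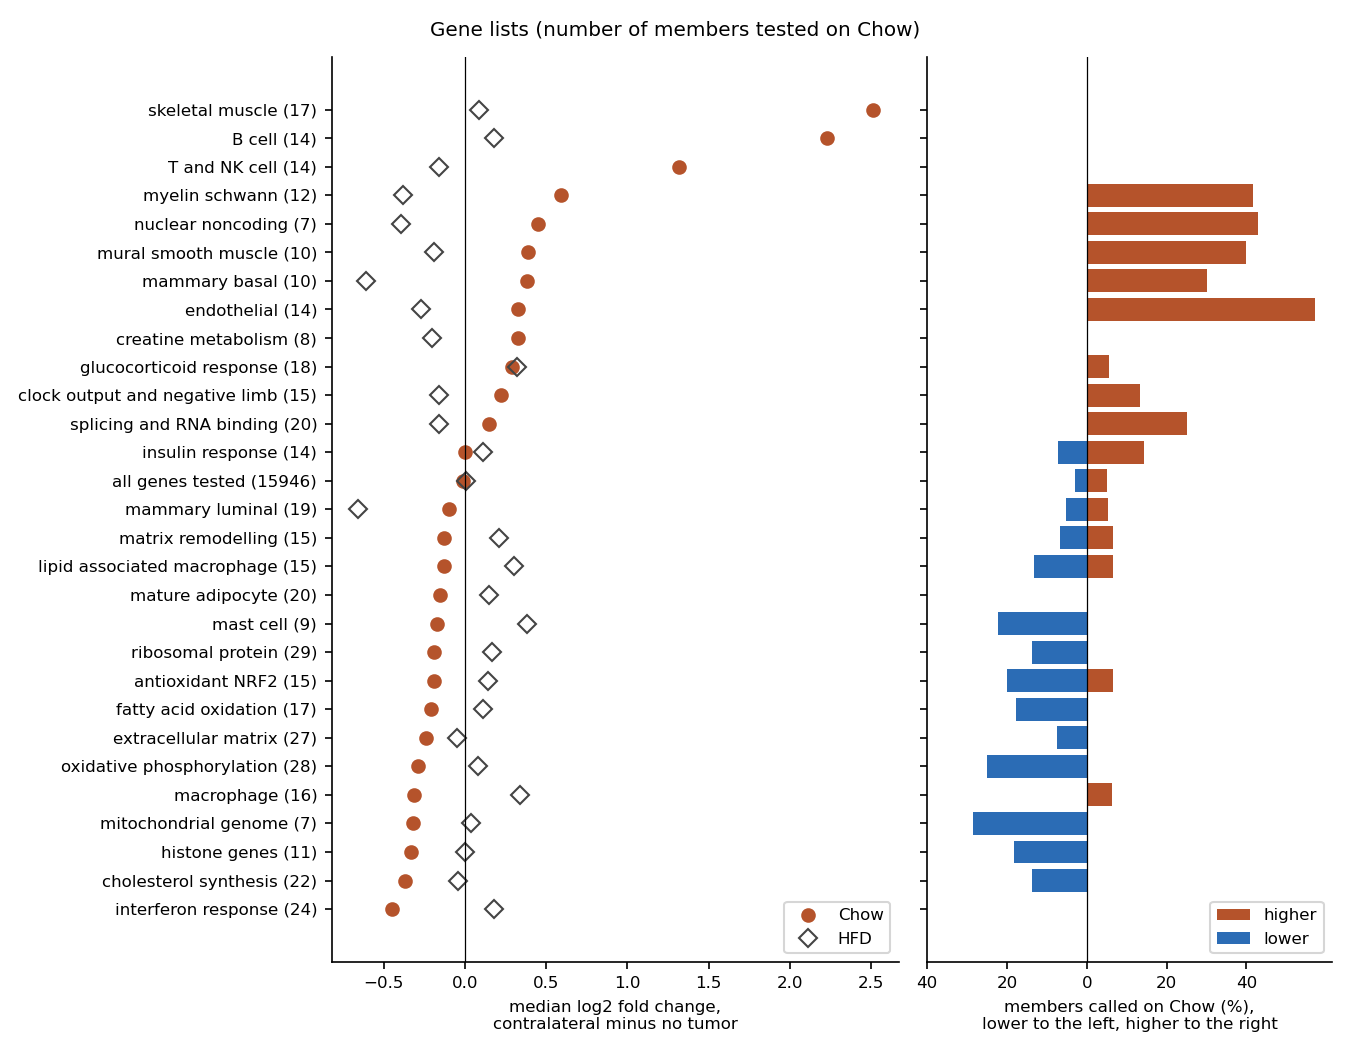
Left, median log2 fold change of each gene list (contralateral minus no tumor) on Chow (filled) and HFD (open), and right, the percent of members called on Chow, lower to the left and higher to the right, with the number of members tested in brackets. The myelin list has a median of 0.59 on Chow and -0.38 on HFD, and the muscle and B cell lists have the highest medians (2.51 and 2.23) with 0 members called.

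On HFD the same contrast, in other libraries, often ran the other way. There 956 of 15718 genes were called (6.08%), 427 higher (2.72%) and 529 lower (3.37%). Depth also ran the other way, with 16.67 to 17.29 M counts in HFD contralateral and 14.98 to 16.53 M in HFD no-tumor libraries. So did mitochondrial ribosomal RNA, at 22.82 to 24.83% against 20.54 to 22.01% of counts. Neither measure overlapped between the HFD groups, and their part in the reversal was not tested. Prx stood at 3.55 ± 0.966 CPM in HFD contralateral and 6.44 ± 0.908 CPM in HFD no-tumor fat (SD, n = 4), a log2 fold change of -0.88 (adjusted p = 0.0184). The difference of the Chow and HFD fold changes was 2.08 (SE 0.27, adjusted p = 0.000287). For Kcna1 the HFD value was -0.71 and the difference 2.06 (SE 0.19, adjusted p = 9.96e-06), and for Neat1 -0.39 and 1.53 (SE 0.16, adjusted p = 4.95e-05). Myh11 fell on HFD by 0.79 (adjusted p = 0.00341), with a difference of 1.43 (SE 0.18, adjusted p = 0.000312).

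Across the 16676 genes tested for the difference between diets, 3314 passed (19.9%). Of 764 genes called higher on Chow, 626 (81.9%) had values below 0 on HFD, where 48.5% of all genes were below 0, 86 of them called lower and 5 called higher. Of 481 called lower on Chow, 385 (80%) had values above 0 on HFD, against 51.5% of all genes, with 31 called higher and 4 called lower. Over all 15375 genes tested on both diets, the fold changes had opposite signs in 63.8%, and Pearson's r was -0.25 and Spearman's rho -0.33, as descriptions across genes, which are not independent replicates. Called higher differences were in 7 of 12 myelin, 10 of 14 endothelial, 7 of 7 nuclear noncoding and 14 of 20 splicing genes. The nuclear noncoding genes include Gm42418, which was high in Chow contralateral replicate 2. Called lower differences were in 16 of 28 oxidative phosphorylation and 18 of 30 ribosomal protein genes. Over all 16676 genes, 1657 had a called higher and 1657 a called lower difference. The Chow libraries that drew attention to these lists enter the difference, so nothing is read from the counts.

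A further set of genes had values on HFD above those on Chow. Mmp9, a gelatinase, had -0.35 on Chow (adjusted p = 0.0969) and 1.03 on HFD (adjusted p = 0.00163), a difference of -1.40 (SE 0.18, adjusted p = 0.000261). Hdc, which makes histamine, had -0.12 and 1.36, a difference of -1.50 (SE 0.31, adjusted p = 0.00494). Gulp1, an engulfment adaptor, and Hilpda, a lipid droplet protein induced by hypoxia, had differences of -1.03 and -1.27 (adjusted p = 0.00303 and 0.00624).

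In all, 9 genes, named after their values were seen, were called in the same direction on both diets. They were 5 of the 764 genes called higher on Chow and 4 of the 481 called lower, where 2.72% and 3.37% of all genes were called higher and lower on HFD. Pgr fell on HFD by 1.44 (adjusted p = 0.0492), from 32 ± 14.2 to 12 ± 1.63 CPM. Those that rose include Dcun1d3, Rhob, Snrk and Slc25a37, with Chow values of 0.35 to 0.52, and the others that fell were Ctr9, Aqp5 and Gm16485, with -0.48 to -0.36. On Chow the calls of Rhob, Slc25a37 and Aqp5 held in 2 of 8 omissions each, that of Snrk in 3, and those of Dcun1d3, Ctr9 and Gm16485 in all 8. Igfbp3 had 1.21 on HFD (SE 0.32), which did not pass (adjusted p = 0.0822).

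**Figure D4:**
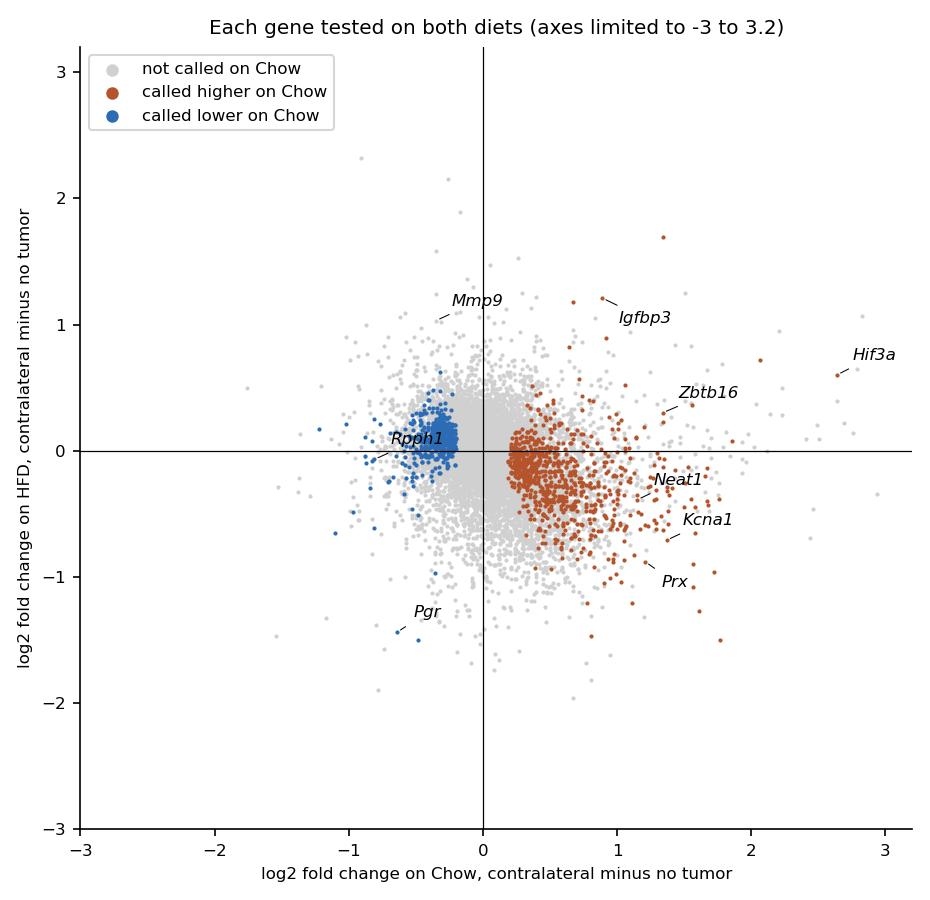
Each point is 1 of the 15375 genes tested on both diets, with the log2 fold change (contralateral minus no tumor) on Chow on the x axis and on HFD on the y axis, colored by the call on Chow, and 6 genes lie outside the axes. Of the genes called higher on Chow 81.9% lie below 0 on HFD, among them Prx at -0.88 and Kcna1 at -0.71.

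Gene length and class went with the direction of change. In the quintile of genes with the longest summed exons (6005 to 116824 bases), 353 were called higher and 26 lower, with a median of 0.08. In the quintile with the shortest (57 to 1720 bases), 84 were higher and 192 lower, with a median of -0.11. Among protein-coding genes alone the longest quintile had 324 higher and 22 lower and the shortest 35 and 194. On HFD the medians ran the other way, from 0.04 in the shortest to -0.04 in the longest quintile of all genes. With every library thinned to the smallest total, the shortest quintile had 51 higher and 153 lower and the longest 318 and 22 calls.

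Calls in the noncoding classes were mostly higher. Of 470 antisense genes 57 rose and 0 fell (median 0.45), and of 277 lincRNA genes, which lie between coding genes, 37 rose and 1 fell (median 0.35). On HFD the same classes had medians of -0.30 and -0.25, with 20 and 14 called lower and 0 called higher. Exons of 270 of the 470 antisense genes overlap exons on the opposite strand, and these include 26 of the 57 that rose. The short snoRNA class had 5 lower and 0 higher of 50. The Chow groups differed without overlap in depth, mitochondrial ribosomal RNA and small RNA (which includes Rpph1 and Rmrp), as given above. The HFD groups differed the other way in depth and mitochondrial ribosomal RNA. Thinning made the total counts equal, not the depth on genes outside mitochondrial ribosomal RNA. It left 1059 genes called, of which 958 were among the 1268, and the part of RNA quality or library preparation in the length and class pattern was not tested.

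**Figure D5:**
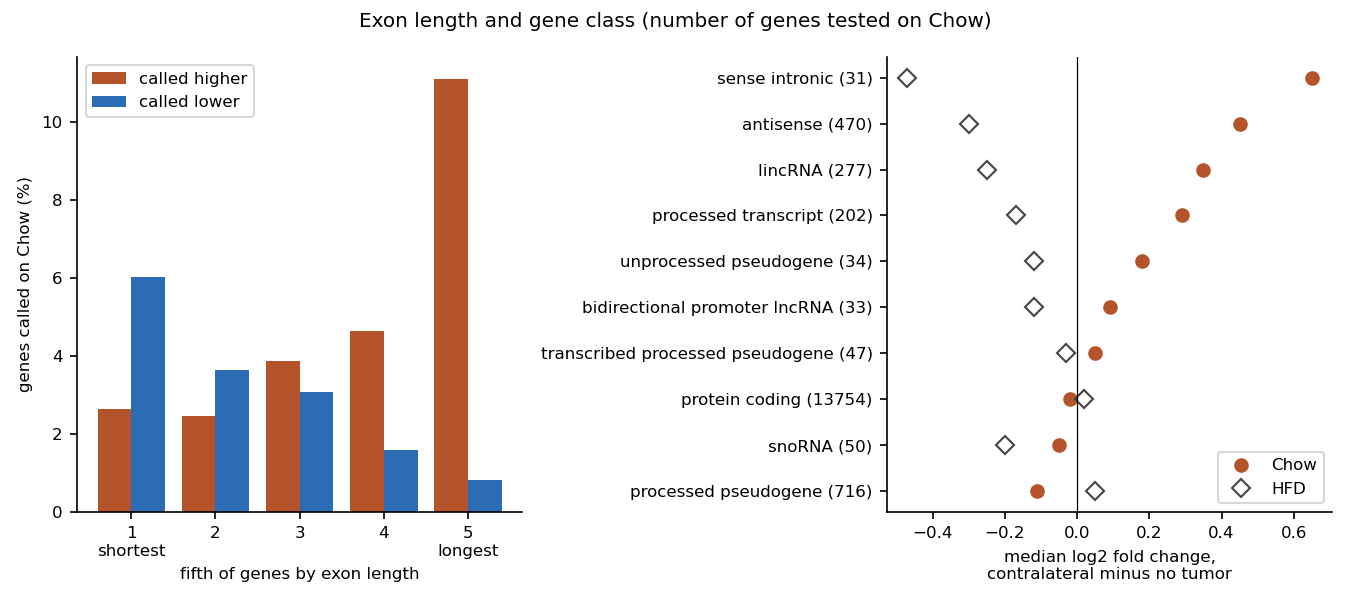
Left, percent of genes called higher or lower on Chow in each quintile of genes by summed exon length, and right, median log2 fold change (contralateral minus no tumor) of each gene class on Chow (filled) and HFD (open), with the number of genes tested in brackets. The longest quintile has 11.1% called higher and 0.815% called lower, and antisense genes have medians of 0.45 on Chow and -0.30 on HFD.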

How the data were processed

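RNA of 24 fat libraries was sequenced, and the authors deposited whole-number counts per gene as a single matrix of 39017 genes on mm10. TopHat and DESeq are named in the submitters' processing notes; their versions, the counter and the strand setting are not given in those sources. Reads of overlapping or near-identical genes may therefore be split. A name table gave symbols to 37607 Ensembl IDs. The other 1410 genes, with 0.153 to 0.209% of the counts of the 8 libraries, were tested under their IDs.

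Groups came from the diet and sample type labels. Contralateral and no-tumor fat on Chow were fitted on their own 8 libraries by the robust quasi-likelihood F test of edgeR 4.0.16 (R 4.3.3), after TMM scaling and filterByExpr with a minimum count of 10 and total of 15, with Benjamini-Hochberg adjustment and a threshold of 0.05. The HFD contrast used its own 8 libraries and the difference between diets all 16. TMM factors from all 24 scaled the printed CPM. The scripts were tested on simulated data. Exon lengths and positions were those deposited, gene classes came from GENCODE M21 and promoters from RefSeq GRCm38.p6. DESeq2 1.42.0 and limma 3.58.1 gave alternatives.

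The comparison, the 53 gene lists and the tests were chosen with earlier results of these data known. The naming rule took up to 12 higher and 12 lower genes by adjusted p with a log2 fold change of at least 1, 5 CPM and no overlap, the creatine genes, up to 4 called members of each list, or 2 where none was called, and marker genes. Genes outside it are said to have been added after their values were seen, and list members given to fill out a list also fall outside it. Median chi-square values of library pairs within groups were 1.121 to 6.462, against 0.455 for sampling noise alone, so no library was counted as a duplicate. Some genes called are not reported here.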

Additional observations from a re-analysis of the deposited data

Results flagged for a closer look

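Among 234 groups of 4 values examined (named genes and measures per library, in the 2 Chow groups), 23 held a library far from the other 3 by Dixon's test at its 95% critical value. Chance flags about 1 in 20 groups. In no-tumor replicate 2 these were Acly at 2670 CPM and Gamt at 10.5 CPM, both high, and Isg15 at 2.46 CPM, low. In no-tumor replicate 1, Ckb (19.6 CPM) and Pgr (133 CPM) were high and Malat1 (7930 CPM) was low. No-tumor replicate 3 was high in the muscle genes, with a summed level of 1350 CPM, 0.122% of counts and Ckm at 55.2 CPM, and no-tumor replicate 4 was high in Gulp1 (95.6 CPM) and Kcna1 (13.1 CPM).

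In contralateral replicate 2, Gm42418 stood at 127000 CPM (11.367% of counts) and the total was lowest, at 11.69 M. Contralateral replicate 4 was high in Glycam1 (73 CPM) and T and NK cell genes (155 CPM summed) and low in Col5a2 (275 CPM) and Cox6a1 (102 CPM). Contralateral replicate 3 was high in Lep (375 CPM) and Tpsb2 (27.7 CPM) and low in Pmp22 (116 CPM) and Ckmt2 (0.0686 CPM), and contralateral replicate 1 was high in Son (630 CPM).

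Of 103 genes named, most of them for their Chow values, 68 had a contrast that differed between diets by the interaction test in edgeR (adjusted p under 0.05), with the Chow value above the HFD value in 41 and below it in 27. Of all genes tested 19.9% had such a difference, and nothing is read from the count of named genes, since the Chow libraries that chose them enter the difference. The differences of log2 fold changes (Chow minus HFD) among myelin list genes were 2.08 for Prx, 1.95 for Mal, 1.37 for Ncmap, 1.35 for Sox10 and 0.60 for Mbp. Outside that list they were 2.06 for Kcna1, 1.89 for Kif1a, 1.6 for Tenm2, 1.4 for Syn3, 1.33 for Gpr17 and 0.97 for Shank3. What these genes share was not tested, and Syn3, Gpr17 and Shank3 overlap other genes, as given above. For nuclear RNA and RNA-binding genes they were 1.53 for Neat1, 1.33 for Rbm4, 1.07 for Rbm4b, 0.93 for Meg3, 0.73 for Malat1, 0.59 for Clk4, 0.45 for Srsf5 and 0.37 for Son. Vessel and smooth muscle genes had 1.43 (Myh11), 1.09 (Carmn), 0.96 (Adgrf5), 0.83 (Tie1), 0.66 (Esam), 0.64 (Cdh5), 0.59 (Pecam1) and 0.56 (Flt1).

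Other genes with a difference above 0 were Gm42418 (5.90), Slc28a3 (2.09), Slc4a8 (2.05), Hif3a (2.03), Phxr4 (1.95), Ckmt1 (1.87), Elf5 (1.43), Vwa3a (1.26), Gm16485 (1), Per2 (0.84), Alpl (0.64), Aqp5 (0.59), Timp3 (0.49, overlapping Syn3) and Gclc (0.40).

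Below 0 lay the mitochondrial and oxidation genes mt-Rnr2 (-0.77), Ndufa1 (-0.58), Cox4i1 (-0.56), Cox6a1 (-0.55), Etfb (-0.52), mt-Nd5 (-0.49), mt-Nd2 (-0.48), Acads (-0.45) and Acadm (-0.43), and the short RNA genes Rpph1 and Rmrp (-0.76 each). Immune and stromal genes below 0 were Isg15 (-1.74), Hdc (-1.50), Mmp9 (-1.40), Gulp1 (-1.03), Cma1 (-0.83), Tpsb2 (-0.70), Cstb (-0.62) and Serpinh1 (-0.57). The remaining values were -1.27 for Hilpda, -0.63 for Adipoq, -0.76 for Hoxc8, -0.64 for Hsd17b7, -0.54 for Cebpa, -0.48 for Dusp4, -0.51 for Rplp1 and -0.48 for Prdx1.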

How the results depend on the processing

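The direction of the 110 called genes among the 181 chosen by the naming rule or added held in all settings tried. The settings reuse the same libraries, so this is no independent support. Of the 110 genes, 20 kept their call in every setting. Leaving out each library in turn kept the call of 52 and lost it at least once in 58. It moved the number of genes called on Chow between 375 and 1986, the higher calls between 279 and 996 and the lower calls between 85 and 990. With all 24 libraries in 1 fit, 692 genes were called on Chow (392 higher, 300 lower), 238 on HFD and 1556 for the difference between diets. With the muscle mean as a covariate 122 were called (112 higher, 10 lower, so 91.8% higher), and with the B cell mean 399 (327 higher, 72 lower, 82% higher). Without both libraries numbered 2, an alternative added after seeing the data, 838 were called higher and 827 lower (50.3% higher), and without a low-count filter 653 and 632 (50.8% higher), against 62% with the filter. DESeq2 called 1538 genes, RLE size factors gave 1250 and voom with quality weights 1718. Leaving out members under 1 CPM moved each of the 53 list medians by less than 1 SD of the list's mean log2 level between libraries, for example from 0.59 to 0.68 for myelin genes and from -0.06 to -0.13 for cell cycle genes. The cause of these changes was not tested, beyond the fewer samples in each omission.

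With the replicate number as a block, 356 genes were called on Chow (281 higher, 75 lower, 78.9% higher) and 629 on HFD. Same-numbered libraries of the Chow groups did not deviate together (correlations of -0.437 to -0.017), so the numbers did not pair them.

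Depth limits low genes: the contralateral libraries held 11.69 to 13.85 M counts, and Ckmt2 stood below 2 CPM in all 8 libraries.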
